A study of Mus musculus with 108 samples.

Results

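Long active enhancer stretches were defined as unbroken runs of 10 kb or more of autosomal chromatin that carried the active enhancer state, state 3, in the livers of all 3 groups of mice analysed here. Mouse liver histone marks had been summarised by the study as 1 of 8 chromatin states for every bin of 200 bp, and adjacent bins with state 3 in each of the 3 segmentations were merged. Of 61323 shared stretches of state 3 on the 19 autosomes, 4255 reached 10 kb and are described here. They were chosen by the deposited states themselves, so their lengths and their states are a description and were not tested.

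The livers came from C57BL/6 female mice and were fixed in formalin and embedded in paraffin before chromatin was immunoprecipitated. SD 3m comprised 8 mice of 3 months on standard diet (30 libraries), SD 12m 8 mice of 12 months on standard diet (29 libraries) and CR 12m 9 mice of 12 months that had been fed 30% fewer calories from the age of 3 months (29 libraries). A group SD 6m of 6-month-old mice (20 libraries) was not analysed here. The marks were H3K4me3, H3K27me3, H3K27ac and H3K4me1, from whole liver tissue, so hepatocytes and the other cells of the organ were measured together. The libraries of a group were pooled by mark ahead of the state assignment, which left 1 segmentation for each group. Hence no value below has a spread between mice, and the read depth behind a state is unknown. Where 3 values follow each other without group names, the order is SD 3m, SD 12m, CR 12m. The intervals and ranges given below describe counting error or the spread over the 19 autosomes only. The intervals treat stretches as independent, although neighbours can lie in the same gene, so they may be too narrow.

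Enhancers are stretches of DNA that bind transcription factors and raise the transcription of genes on the same chromosome, often from an intron or from far outside the gene. H3K4me1 marks enhancers in general, and H3K27ac marks those that are active. State 3 combined H3K27ac with H3K4me1, whereas state 4, also an active enhancer state, had H3K27ac with little H3K4me1. State 5, the poised enhancer state, had H3K4me1 alone, states 1 and 2 marked the transcription start site (TSS) and its flanks, state 6 Polycomb repression, state 7 repeats and lamina-associated chromatin, and state 8 quiescent chromatin. Clusters of active enhancers that run for many kilobases are known from genes that define a cell type, and in hepatocytes these genes answer to factors such as HNF4A, HNF1, FOXA, C/EBP and NFI.

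To show what such chromatin looks like as DNA, the bin of 200 bp with the most bases in matches to 8 short transcription factor motifs is printed for each of the 5 longest stretches. The motifs are listed with their letters further on, and the letters that matched are in capitals. All 5 are the plus strand of GRCm38.p6, the assembly that mm10 represents, and a match is a description of letters and not a binding site. The first lies in an intron of Ppp2r5e (chr12:75477401-75477600) with 3 matches, NFI at bases 33 and 93 and the octamer at 161. The bin in Nfia (chr4:97966001-97966200) had C/EBP matches at 120 and 182 and a FOXA match at 159. That in Ankrd11 (chr8:122977201-122977400) had an HNF4A match at 65 between C/EBP matches at 18 and 107. The bin in Magi1 (chr6:94219801-94220000), which overlaps an exon of the lncRNA gene Gm52867, had HNF1 at 42, C/EBP at 71 and the octamer further on, and the bin in Zmiz1 (chr14:25496201-25496400) had NFI at 144 and HNF1 at 176. In all 5 stretches the median bin held no match at all, and for example 495 of the 641 bins of the Ppp2r5e stretch held none.
Ppp2r5e: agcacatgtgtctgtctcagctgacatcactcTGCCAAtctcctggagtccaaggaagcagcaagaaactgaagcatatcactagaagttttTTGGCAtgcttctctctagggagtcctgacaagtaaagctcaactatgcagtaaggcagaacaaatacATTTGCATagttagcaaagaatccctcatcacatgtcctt
Nfia: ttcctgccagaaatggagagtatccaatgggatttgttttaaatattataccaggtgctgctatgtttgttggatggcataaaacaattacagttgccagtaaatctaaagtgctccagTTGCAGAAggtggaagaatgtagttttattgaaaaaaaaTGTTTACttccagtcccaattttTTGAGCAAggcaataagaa
Ankrd11: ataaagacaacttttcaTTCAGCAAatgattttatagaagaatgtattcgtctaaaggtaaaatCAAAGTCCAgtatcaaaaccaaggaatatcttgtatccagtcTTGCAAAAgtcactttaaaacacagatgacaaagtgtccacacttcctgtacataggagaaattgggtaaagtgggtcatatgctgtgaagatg
Magi1: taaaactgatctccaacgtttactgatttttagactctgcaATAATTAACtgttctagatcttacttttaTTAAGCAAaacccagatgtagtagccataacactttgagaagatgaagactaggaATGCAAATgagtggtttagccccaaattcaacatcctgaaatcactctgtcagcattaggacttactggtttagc
Zmiz1: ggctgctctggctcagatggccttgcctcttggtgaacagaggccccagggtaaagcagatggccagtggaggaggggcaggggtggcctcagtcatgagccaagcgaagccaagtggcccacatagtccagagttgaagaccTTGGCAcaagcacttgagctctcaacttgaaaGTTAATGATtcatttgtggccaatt

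The 4255 stretches spanned 74.58 Mb, or 3.03% of the autosomal bins. They were 6.94% of the shared stretches but held 37.0% of the 201.3 Mb of shared state 3. Their median length was 14.4 kb, with quartiles of 11.6 and 19.6 kb, and 1022 of them reached 20 kb, 350 reached 30 kb and 64 reached 50 kb. The shorter shared stretches had a median length of 1.4 kb. At the threshold the lengths ran on without a gap, as 129 shared stretches measured 9.8 kb and were left out and 140 measured 10 kb and were kept.

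Every autosome held long stretches. Chromosome 11 had most, with 369 stretches on 5.24% of its bins (30.2 per 10 Mb), followed by chromosome 19 with 178 on 5.07% (28.98 per 10 Mb). The lowest density was found on chromosome 3, with 203 stretches on 2.05% of its bins (12.7 per 10 Mb). The share of the shared state 3 bases that lay in long stretches varied less, from 32.1% on chromosome 3 to 43.0% on chromosome 6.

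**Figure D1:**
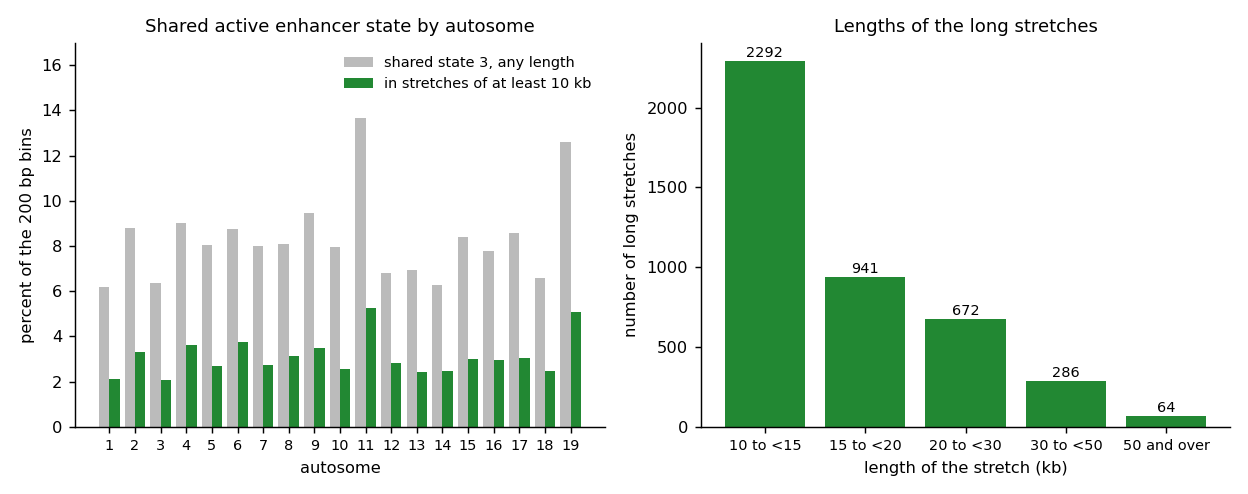
Left, percent of the 200 bp bins of each autosome that were in state 3 in SD 3m, SD 12m and CR 12m (grey, any length; green, stretches of at least 10 kb); right, number of long stretches by length in kb. Chromosomes 11 and 19 stand highest in both measures (5.24% and 5.07% of bins in long stretches), and 2292 of the 4255 stretches were shorter than 15 kb.

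The longest stretch of all lay in Ppp2r5e, which encodes a regulatory subunit of protein phosphatase 2A. It ran for 128.2 kb on chromosome 12 (75462601 to 75590800) and covered most of the 146.8 kb gene, ending 5.43 kb downstream of its TSS. The state 3 run that held it was 129.2 kb long in SD 3m, 128.2 kb in SD 12m and 133.4 kb in CR 12m. The 3 groups thus placed its ends within a few kilobases of each other.

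Nfia, which encodes a transcription factor of the NFI family, held the second and the eighth longest stretches. The first of them was 106 kb long (chromosome 4, 97908601 to 98014600), with runs of 144.2 kb in SD 3m, 106.2 kb in SD 12m and 237.6 kb in CR 12m. The other was 82.2 kb long (97786401 to 97868600), with runs of 82.2, 87.6 and 237.6 kb in the same order. The CR 12m run was the same one for both, so that in CR 12m state 3 was unbroken over the whole distance, while the SD 3m run was broken by the flanking TSS state at both ends of the second stretch.

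Ankrd11, a chromatin regulator, held 104 kb (chromosome 8, 122896801 to 123000800), and the scaffold protein gene Magi1 held 94.8 kb (chromosome 6, 94141401 to 94236200). For Ankrd11 the runs were 104 kb in SD 3m, 104.4 kb in SD 12m and 131.2 kb in CR 12m. In Magi1 the longest run was instead that of SD 3m, with 114.4 kb compared to 95 kb in SD 12m and 97.8 kb in CR 12m. Zmiz1, a transcriptional coactivator, followed with 94 kb (chromosome 14, 25462401 to 25556400), and here SD 12m had the longest run (106.8 kb, against 94 kb in SD 3m and 94.8 kb in CR 12m). No group was therefore the longest at all of these loci.

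Several of the next stretches lay in genes for kinases, transporters and gene regulators. The stretch in Hipk2, a nuclear kinase that phosphorylates transcription factors, was 87.8 kb long, and its last 7.64 kb also overlapped Tbxas1, which encodes thromboxane synthase. Slc16a10, a transporter of aromatic amino acids, held 83.4 kb of its 108.7 kb. Rere, a nuclear receptor corepressor, held a stretch of 77.8 kb whose run doubled in length in the older groups, from 77.8 kb in SD 3m to 162.2 kb in SD 12m and 182 kb in CR 12m. The stretch of 79.6 kb at Rbpms, an RNA-binding protein gene, and Gtf2e2, which encodes a subunit of the general factor TFIIE, was in runs of 79.6, 95.4 and 160.2 kb in SD 3m, SD 12m and CR 12m. The remaining gene-bound stretches among the 20 longest lay in Ssbp3 (76.8 kb), Pitpnm2 (71.4 kb), Plpp3 (71 kb), Rreb1 (70.8 kb), Lpp (70.8 kb), Sik3 (70 kb), Dlc1 (68 kb) and Vps13d (67.2 kb). Sik3 encodes a salt-inducible kinase, and its stretch ended 20 kb upstream of the TSS of Apoa1, the main protein of high-density lipoprotein. Plpp3, a lipid phosphatase, was covered almost from end to end, with 69.97 of 75.4 kb. In Dlc1, which encodes a GTPase-activating protein, the run measured 68 kb in each of the 3 groups, and it was the longest of 41 stretches (0.964%) whose run had the ends of the shared stretch in all 3 groups.

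Only 2 of the 20 longest lay outside protein-coding genes. The first (chromosome 8, 126814401 to 126889600) was 75.2 kb long and overlapped the lncRNA genes Gm31718 and A630001O12Rik, 56.3 kb downstream of the TSS of Tomm20, an import receptor of mitochondria. Its run measured 75.2 kb in SD 3m, 92.2 kb in SD 12m and 311.6 kb in CR 12m, the longest run of any group that held a stretch. The second (chromosome 12, 79878001 to 79952400) was 74.4 kb long and overlapped 5 lncRNA genes, among them 9430078K24Rik and 4933435C09Rik, and the nearest TSS was that of Zfp36l1 at a distance of 160.6 kb. Of the 20, none held the TSS of a protein-coding gene. Their GC content ranged from 40.6% in the second Nfia stretch to 52.4% in Zmiz1.

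**Figure D2:**
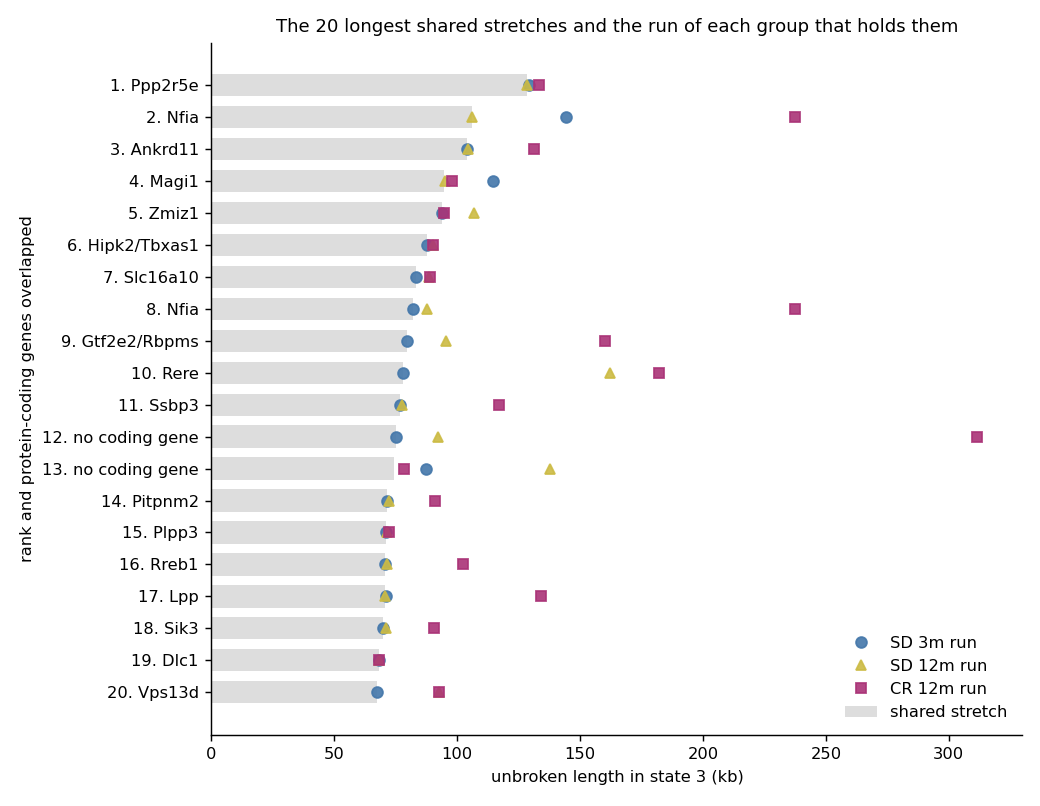
Length in kb of the 20 longest shared stretches (grey bars) and of the unbroken state 3 run that holds each in SD 3m (circles), SD 12m (triangles) and CR 12m (squares). Runs end close to the shared stretch in Ppp2r5e, Slc16a10 and Dlc1, and the CR 12m run reaches 237.6 kb in Nfia and 311.6 kb at the twelfth stretch.

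The shared stretch was the common core of runs that differed in length between the groups. The run that held a stretch had a median length of 15.6 kb in SD 3m (quartiles 12.2 and 22.2 kb), 20.4 kb in SD 12m (14.6 and 31 kb) and 26.2 kb in CR 12m (17.6 and 42.2 kb). The order of these medians was the same on each autosome, where they ranged from 14.9 to 16.8 kb in SD 3m, from 18.1 to 24.7 kb in SD 12m and from 23.1 to 30.2 kb in CR 12m. A run was counted once for each stretch it held, and the stretches lay in 4159, 3870 and 3603 distinct runs. The rule sets part of the order, since a stretch ends where any group leaves state 3, most often SD 3m. Over all runs of at least 10 kb in a single group, the medians were closer, at 14.6, 15.2 and 16.2 kb. By stretch, the CR 12m run was longer than the SD 12m run in 3110 cases (73.1%) and shorter in 759 (17.8%), and the SD 12m run was longer than the SD 3m run in 3147 (73.96%) and shorter in 829 (19.5%). The number of merged libraries moved with part of this order, as CR 12m had 9 libraries for H3K27ac and 9 for H3K4me1, SD 12m had 7 and 6 and SD 3m had 8 and 8, and its part in the run lengths was not tested.

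SD 3m set most of the ends. Of the 8510 ends, 4764 (56%) were those of SD 3m alone, 1114 (13.1%) of SD 12m alone and 463 (5.44%) of CR 12m alone, and all 3 groups ended together at 887 (10.4%). Where a SD 3m run ended, the next bin was in the poised enhancer state in 53.2% of 6694 cases, in the flanking TSS state in 31.8% and in state 4 in 14.5%. In SD 12m the next bin was in state 5 in 60.5% of 3155 ends, in state 4 in 32.8% and in state 2 in 5.86%. In CR 12m the shares were 47.4%, 44.4% and 7.28% of 1717 ends. At none of the ends was the next bin of a group whose run ended there in state 6, 7 or 8.

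Outside their ends the stretches lay in further enhancer chromatin. Between 19 and 20 kb from an end, 56.6%, 60.3% and 66.97% of the bins were still in state 3. Around the shorter shared stretches the same distance had 38.8%, 42.2% and 48.6%, and over all autosomes state 3 covered 9.90%, 10.6% and 12.4% of the bins. The quiescent state, which covered 65.96%, 51.8% and 62.1% of the autosomal bins, made up only 8.27%, 7.43% and 6.82% of the bins at that distance. Polycomb-repressed bins made up 2.06%, 0.526% and 0.632% of them. The groups differed most within the first kilobase, where the flanking TSS state held 20.8% of the SD 3m bins but 4.21% and 3.05% of those of the older groups, and the poised state held 28.9%, 15.5% and 6.85%. Over all autosomes the flanking TSS state covered 1.20%, 0.452% and 0.385% of the bins and the poised state 5.61%, 2.75% and 2.47%. The rule sets part of the difference in the first kilobase, as the bin past an end is never in state 3 in a group that ended there. SD 3m ended at 6694 of the 8510 ends, SD 12m at 3155 and CR 12m at 1717.

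**Figure D3:**
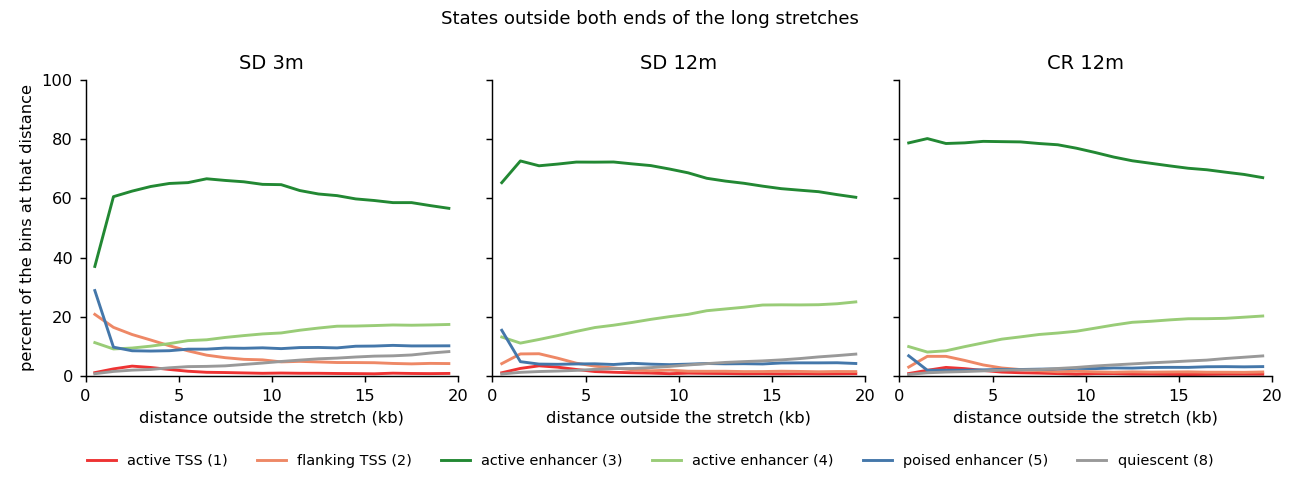
Percent of bins in 6 of the states at each distance in kb outside both ends of the 4255 long stretches, in SD 3m, SD 12m and CR 12m. State 3 stays the most frequent state out to 20 kb in each group (56.6%, 60.3% and 66.97% in the last step). The first kilobase in SD 3m, the group that set most of the ends, holds more of states 2 and 5 (20.8% and 28.9%).

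Most bins in the long runs of a single group were in state 3 in the others as well. On its own SD 3m had 5041 runs of at least 10 kb (89.97 Mb), SD 12m had 6506 (126.7 Mb) and CR 12m had 8233 (174.1 Mb). The shared stretches held 82.9%, 58.9% and 42.8% of the bases of these runs. Bins of the long SD 3m runs were in state 3 in 97.2% of cases in SD 12m and in 97.97% in CR 12m. Bins of the long SD 12m runs were in state 3 in 89.7% of cases in SD 3m and in 98.5% in CR 12m. For the long CR 12m runs the share was 90.4% in SD 12m and 82.1% in SD 3m. In SD 3m a further 8.07% of the bins of these CR 12m runs were poised, 5.15% in state 4 and 4.26% in state 2. In each group the share of bins that were in state 3 in all 3 groups rose with the length of the run. In SD 3m it was 43.0% in runs under 1 kb, 94.7% in runs from 10 to under 20 kb and 98.9% in runs of 40 kb and more. In CR 12m it was 16.9%, 72.4% and 89.3% in the same classes. The median distance from one long stretch to the next on its chromosome was 47.6 kb.

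Many stretches had a close neighbour. Of 4236 gaps between neighbours, 1357 (32.0%) were no longer than 12.5 kb, the distance over which clustered enhancers are often joined, and 494 were no longer than 1 kb. With gaps of up to 12.5 kb joined, 2180 stretches (51.2%) fell into 823 chains of 2 or more. The chain with the greatest span covered 332 kb of chromosome 8 (126596601 to 126928600) with 9 stretches and 311.4 kb of shared state 3, outside any protein-coding gene, and contained the twelfth longest stretch. It was followed by chains of 276.8 kb at Rad51b, a DNA repair gene, of 228.2 kb at Nfia and of 227 kb at Etv6, a transcriptional repressor. Among the 494 gaps of up to 1 kb, SD 3m left state 3 in 415 (84.0%), SD 12m in 257 (52.0%) and CR 12m in 156 (31.6%). In these gaps 60.8% of the SD 3m bins were poised and 12.0% in the flanking TSS state.

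The stretches lay mostly in introns. A protein-coding gene was overlapped by 3359 of them (78.9%, Wilson 95% interval 77.7 to 80.1, range over the autosomes 70.3 to 83.6%), compared to 66.5% of the shorter shared stretches. Of their bases 72.3% were intronic, 3.98% exonic and 23.7% outside protein-coding genes. In the shorter stretches these shares were 59.9%, 5.63% and 34.5%, and in the autosomes as a whole 36.5%, 3.38% and 60.1%. As many as 2853 (67.1%) lay wholly inside gene spans, and 2013 (47.3%) held no exonic base. The share that overlapped a gene rose with length, from 75.8% of stretches under 15 kb to 92.2% of the 64 that reached 50 kb. Of the 896 stretches outside protein-coding genes, 440 (49.1%) overlapped a lncRNA gene.

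Few stretches held a TSS. A TSS of a protein-coding gene, taken as the start of its longest curated RefSeq transcript, lay inside 132 stretches (3.10%, Wilson 95% interval 2.62 to 3.67), compared to 606 of the 57068 shorter shared stretches (1.06%). These shares are per stretch, and the median lengths were 14.4 and 1.4 kb. Per base the order was reversed, with 132 such stretches in 74580000 bases and 606 in 126739000 bases. Of all 20558 autosomal protein-coding genes, 142 (0.691%) had their TSS in a long stretch. A bin in state 1 or 2, the states of an active TSS, breaks a run, so this low share is in part set by the rule. The value depended on SD 3m, since without this group the rule gave 6119 stretches over 117.7 Mb and 5.998% of them held a TSS. The nearest TSS was a median of 15.9 kb away and within 5 kb of 31.3% of the stretches. For 2879 stretches (67.7%) it lay so that the stretch was downstream of it, on the side of the transcribed gene, and for 1244 (29.2%) so that the stretch was upstream. For 459 stretches (10.8%) no TSS was closer than 100 kb.

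Along the gene the stretches peaked some distance behind its start. In genes of 20 kb or more, the first 10% of the span held 9.01% of the bases in long stretches, the next 10% held 13.8% and the part from 20 to 30% held 14.0%. From there the share decreased to 4.57% in the last 10%. The bases of the shorter shared stretches were instead most frequent at the start, with 14.8% in the first 10% of the span and 15.1% in the next. The first 50% of the span held 61.4% of the bases of long stretches and 63.0% of those of the shorter ones.

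**Figure D4:**
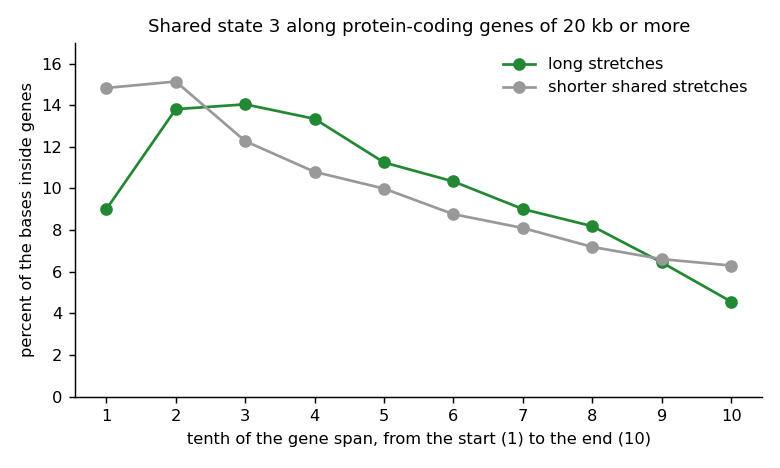
Percent of the bases of shared state 3 inside protein-coding genes of at least 20 kb that fell in each 10% of the gene span, for long stretches (green) and shorter ones (grey). The long stretches have 9.01% at the gene start, 14.0% at their highest and 4.57% in the last, and the shorter ones start at 14.8%. The contrast at the start is in part set by the rule, as TSS states break a run.

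At least 1 base of a long stretch was found in 2208 (10.7%) of the protein-coding genes, and 1817 (8.84%) had at least 10 kb in such stretches. Gene length moved with this count, since 1.92% of genes under 10 kb were overlapped, 7.47% of those from 10 to under 30 kb, 19.8% of those from 30 to under 100 kb and 27.9% of longer ones. The median length of the overlapped genes was 58.3 kb, compared to 17.6 kb for all genes. The genes with the most bases in long stretches, named after their values were seen, were Zbtb20 (321.8 kb), Rad51b (275.6 kb), Lpp (253.2 kb), Prkce (249.2 kb) and Nfia (238.8 kb). Zbtb20 encodes a zinc finger repressor that is abundant in liver, and Prkce a protein kinase C. In 687 genes more than 50% of the span was covered. Among the 25 genes with the most bases, coverage was highest in Sik3 (89.5% of 211.4 kb), Etv6 (87.0% of 234.5 kb), Rbfox2, a splicing regulator (86.2% of 229.4 kb), and Nfib (85.7% of 216.6 kb).

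Only 30 protein-coding genes lay wholly inside a long stretch, and all of these were short. The longest that carry an established name were Sdr9c7 (13.2 kb) and Lyve1 (12.3 kb), the hyaluronan receptor of sinusoidal endothelium. They included Fgf21 (1.6 kb), the hepatokine of the fasting response, and the chemokine and chemokine receptor genes Cxcl9 (6.75 kb), Cxcr6 (5.28 kb) and Cxcr1 (2.92 kb). These were named after their values were seen. Their TSS were by construction in state 3 in SD 3m, SD 12m and CR 12m.

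The TSS of overlapped genes were mostly in promoter states. In SD 3m 1639 of the 2208 (74.2%) were in state 1 or 2, in SD 12m 1434 (64.9%) and in CR 12m 1299 (58.8%). Over all protein-coding genes the shares were 45.5%, 39.7% and 35.0%. A TSS in state 3 or 4 was found in 18.8%, 30.2% and 37.5% of the overlapped genes, compared to 10.5%, 20.7% and 25.8% of all genes. States 6 to 8 held 3.94%, 3.67% and 2.72% of the overlapped genes, compared to 38.0%, 37.9% and 37.6% of all genes. Genes with only shorter shared stretches had a similar share in state 1, with 55.6%, 56.2% and 48.8% compared to 54.5%, 53.4% and 46.6%. Nfia was among the genes with a silent TSS, which was in state 6 in SD 3m and in state 8 in the 2 older groups although 238.8 kb of the gene lay in long stretches. This TSS is that of the longest transcript, and shorter transcripts that start within the gene were not considered.

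Promoters of overlapped genes were rich in CpG. The 300 bases around the TSS, from RefSeq on GRCm38.p6, were found for 16457 of the genes and lay around the TSS used here in 16094. Promoters of the 1765 overlapped genes with such a sequence had a median of 23 CpG (quartiles 12 and 32), those of genes with at least 10 kb in long stretches had 25, and those of all genes had 14. Genes with only shorter shared stretches had a median of 20 and genes without any shared stretch a median of 5. At least 10 CpG were found in 79.4% of the promoters of overlapped genes, 79.7% of those with only shorter stretches and 37.2% of those with none.

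Genes of the liver were compared by lists, read against the 10.7% of all protein-coding genes that were overlapped. This reference includes genes with a silent TSS, which were 38.0%, 37.9% and 37.6% of all genes. Of the genes whose TSS was in a promoter state in SD 3m, 1639 of 9362 were overlapped. The counts were 1434 of 8164 for SD 12m and 1299 of 7199 for CR 12m, each a higher share than 10.7%. The lists were not compared with such genes, and the part of an active TSS in their shares was not tested. In 10 lists of liver genes together, 92 of 337 autosomal genes (27.3%) overlapped a long stretch. The liver genes exceeded all genes in each class of length. Under 10 kb 11.5% of 78 were overlapped compared to 1.92% of all genes, from 10 to under 30 kb 15.8% of 120 compared to 7.47%, from 30 to under 100 kb 41.1% of 112 compared to 19.8%, and above that 66.7% of 27 compared to 27.9%. With SD 3m left out of the rule, 45.4% of the liver genes were overlapped and 16.6% of all protein-coding genes. The 3 lists with the highest shares were lipid synthesis, the growth hormone and insulin axis, and transcription factors. The lowest shares among the liver lists were those of cytochromes P450 and plasma proteins.

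**Figure D5:**
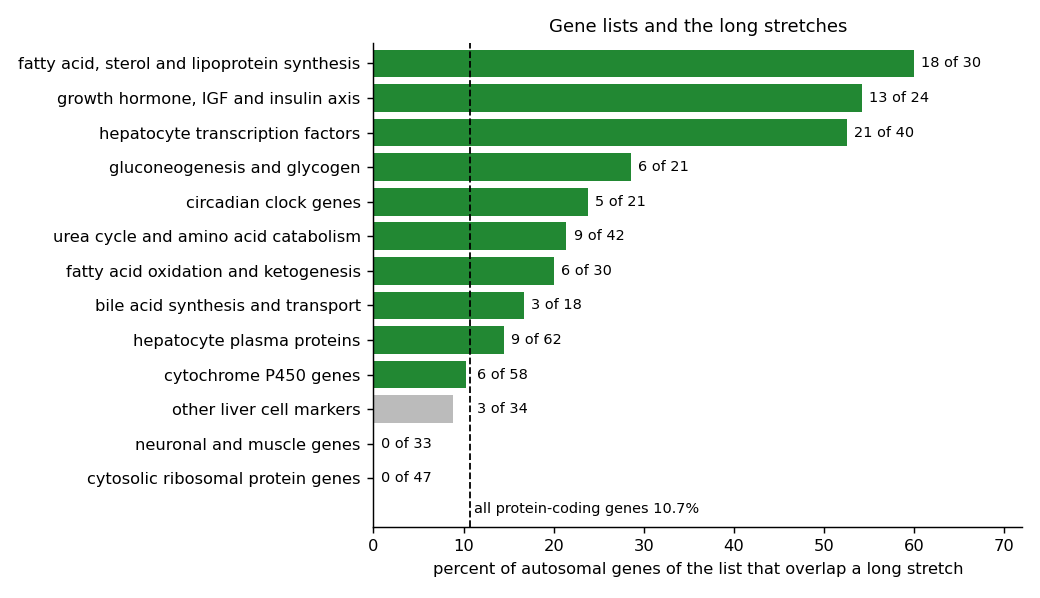
Percent of the autosomal genes of each list that overlap a long stretch by at least 1 base (green, liver lists; grey, others), with the number overlapped and the number in the list, and a dashed line at 10.7% for all protein-coding genes. Lipid synthesis stands highest with 18 of 30, cytochrome P450 genes with 6 of 58 lie below the line, and the ribosomal and the neuronal and muscle lists have none.

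Among hepatocyte transcription factors 21 of 40 (52.5%) were overlapped, and 19 had at least 10 kb in long stretches. The list had a median gene length of 33.2 kb. Nfia came first, followed by Rora, a clock-linked nuclear receptor (206.8 kb), Nfib (185.6 kb) and Nr5a2, the nuclear receptor LRH-1 that governs bile acid genes (85.6 kb of 117.9 kb). State 3 covered 90.9%, 92.7% and 94.9% of Nr5a2, so the groups were within a few percentage points of each other there. For Rora the shares were 62.5%, 61.8% and 73.5%. Cebpa, a factor of hepatocyte differentiation whose gene spans 2.64 kb, and Atf5 (4.40 kb) overlapped no long stretch. Cebpa had state 1 at its TSS in each group and no bin in state 3.

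In the growth hormone, IGF and insulin axis 13 of 24 genes (54.2%) were overlapped and 12 had at least 10 kb. These genes were long, with a median of 59.8 kb compared to 17.6 kb for all genes. Of all genes from 30 to under 100 kb, 19.8% were overlapped. Ghr, the growth hormone receptor, had 94.4 kb of 265.6 kb in long stretches, and Foxo1, the factor that insulin inhibits, 70.2 kb of 81.8 kb. Igf1, the growth factor that liver secretes under growth hormone, had 62.8 kb of 78.8 kb, and Insr, the insulin receptor, 56 kb of 128.7 kb. The share of Igf1 in state 3 was 92.4%, 94.2% and 94.7%, and that of Foxo1 was 90%, 92.7% and 93.9%. For Ghr the values were lower, at 58.7%, 49.3% and 55.7%. Akt1, a kinase of the insulin pathway, and Gcgr, the glucagon receptor, overlapped none, although state 3 covered 52%, 70% and 68% of Gcgr.

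Fatty acid, sterol and lipoprotein synthesis had the highest share, with 18 of 30 genes (60%) and 16 with at least 10 kb. The list had a median gene length of 33.5 kb and a median of 10.6 kb in long stretches, while the median of all protein-coding genes was 0. Lipc, hepatic lipase, had 78.8 kb of 154.1 kb, and Elovl6, a fatty acid elongase, 58.2 kb of 106.1 kb. Abca1, the cholesterol exporter, had 56.8 kb of 129.2 kb, and Acaca, acetyl-CoA carboxylase, 39.6 kb of 272.0 kb. State 3 covered 80.1%, 83.9% and 95.1% of Lipc, and 53.8%, 59.2% and 66.8% of Abca1. Acacb and Dgat1 overlapped none. Their TSS were in state 3 in CR 12m but not in the other groups.

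Gluconeogenesis and glycogen genes were overlapped in 6 of 21 cases (28.6%). Pcx, pyruvate carboxylase, had 79.8 kb of 111.3 kb, Ugp2, which makes UDP-glucose, 40.3 kb of 50.1 kb, and Slc2a2, the glucose transporter of hepatocytes, 23.4 kb of 30.5 kb. State 3 covered 84.4%, 91.9% and 95.2% of Pcx. Gbe1, the glycogen branching enzyme, had 16.4 kb of 255.8 kb. In fatty acid oxidation and ketogenesis 6 of 30 genes (20%) were overlapped, led by the acyl-CoA synthetase genes Acsl1 (23.2 kb) and Acsl5 (13.6 kb) and by Hadhb, a subunit of the mitochondrial trifunctional protein (13.2 kb). The peroxisomal thiolase genes Acaa1a and Acaa1b overlapped none, and both are under 10 kb long (9.27 and 9.05 kb).

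Urea cycle and amino acid catabolism had 9 of 42 genes (21.4%) overlapped, each with at least 10 kb. Among them were Slc25a13, the mitochondrial aspartate carrier (25.4 kb), Kmo, an enzyme of tryptophan breakdown (16.4 kb of 28.7 kb), and Sardh, which oxidises sarcosine (15.2 kb of 59.9 kb). State 3 covered 69.7%, 71.03% and 77.9% of Kmo and 64.5%, 80.7% and 76.4% of Sardh. Acads and Acmsd overlapped none. Circadian clock genes were overlapped in 5 of 21 cases (23.8%), with Rora, Per2 (26.8 kb of 43.4 kb), Hlf (22.4 kb) and Csnk1d (19.6 kb) ahead. The clock list had a median gene length of 33.6 kb, and its share was near the 19.8% of all genes from 30 to under 100 kb. The core clock activator Arntl and the repressor Bhlhe40 overlapped none. The TSS of Arntl was in state 1 in SD 12m and in state 4 in the other groups.

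Plasma proteins, the main secretory products of the hepatocyte, were overlapped in 9 of 62 cases (14.5%), and 4 (6.45%) had at least 10 kb. These genes were short, with a median of 11.6 kb. The coagulation factor gene F5 had 27.2 kb of 68.4 kb in long stretches, the complement gene C8a 23.9 kb of 60.8 kb, Cp, which encodes ceruloplasmin, 23 kb of 52.8 kb, and Itih3 13.4 kb of 15.2 kb. A1bg and Ahsg overlapped none. Although few reached 10 kb, state 3 covered a median of 26.4%, 49.8% and 59.7% of a plasma protein gene, compared to 4.32%, 5.61% and 8.65% over all protein-coding genes. Bile acid genes were overlapped in 3 of 18 cases (16.7%), Abcc2 by 13.2 kb, Hsd3b7 by 1.0 kb and Cyp8b1 by 0.105 kb. The bile acid list had a median gene length of 31.7 kb, and its share was near the 19.8% of all genes from 30 to under 100 kb. The bile salt pump gene Abcb11 and the phospholipid exporter gene Abcb4 overlapped none.

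Cytochrome P450 genes were at the level of all protein-coding genes, with 6 of 58 (10.3%) overlapped and 2 with at least 10 kb. Cyp2c70, which makes muricholic acid in mice, had 13.2 kb of 33.9 kb, Cyp2c39 10.4 kb of its annotated 222.2 kb, Cyp2c23 5.24 kb and Cyp1a2, an inducible drug-metabolising enzyme, 3.86 kb. Cyp1a1 overlapped none, although state 3 covered 81.5%, 95.1% and 100% of it, and Cyp19a1 had no state 3 in any group. Many of these genes stand in arrays of close copies, and the authors removed reads that could not be placed uniquely. Their part in the count was not tested.

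None of the 47 genes for cytosolic ribosomal proteins, all under 10 kb (median 3.35 kb), a class in which 1.92% of all genes were overlapped, and none of 33 neuronal and muscle genes (median 28.0 kb) overlapped a long stretch. Markers of other liver cells were overlapped in 3 of 34 cases (8.82%), near the 10.7% of all genes. The 3 are endothelial markers. Pecam1 had 20 kb of 61.1 kb, Lyve1 its entire 12.3 kb and Eng 11.4 kb of 36.1 kb. Lyve1 was in state 3 throughout in SD 3m, SD 12m and CR 12m. In bulk tissue, a state found in few cells and a weaker mark in many cannot be told apart.

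The defining markers of the tissue were checked in the same way. Of 5 hepatocyte markers, Cps1, the entry enzyme of the urea cycle, had 14.2 kb in long stretches and Ttr 0.992 kb, while Alb, Apoa1 and Serpina1a had none. The albumin gene Alb was partly in active enhancer states, with state 3 on 15%, 55% and 30% of its bins and state 4 on 11.3%, 31.3% and 67.5%. The marker Stab2 of endothelium, with state 3 on 16.6%, 12.8% and 34.1% of its span, had no long stretch. Clec4f and Adgre1 of macrophages, Lrat of stellate cells, Krt19 and Epcam of bile ducts and Cd3e of lymphocytes had no state 3 in any group, and Dcn and Ptprc had 1.03% and 7.08% in SD 3m and none in SD 12m and CR 12m.

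Among noncoding genes, 902 of 12322 lncRNA genes (7.32%) and 57 of 1136 miRNA genes (5.02%) overlapped a long stretch. Of the miRNA genes 56 lay wholly inside. Within the 20 longest stretches there was a single one, Mir3075 in the stretch of Zmiz1. There were 5 stretches that held 2 or more miRNA genes, and they are given here as a set chosen after their values were seen. The stretch of Mir29a and Mir29b-1 (chromosome 6, 31060601 to 31110200), in the lncRNA gene Lncpint, was 49.6 kb long, with runs of 49.6 kb in SD 3m, 51 kb in SD 12m and 56.4 kb in CR 12m. The second cluster of the family, Mir29b-2 and Mir29c (chromosome 1, 195022401 to 195040600), lay in a stretch of 18.2 kb with runs of 18.8, 21.8 and 22.2 kb. Both clusters of the miR-29 family, which represses collagen genes, thus lay in such chromatin.

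The stretch of Mir23b, Mir27b, Mir3074-1 and Mir24-1 (chromosome 13, 63284801 to 63333800) was 49 kb long, with runs of 49, 49.8 and 50 kb. That of Mirlet7c-2 and Mirlet7b (chromosome 15, 85692001 to 85710400) was 18.4 kb long, with runs of 27, 18.4 and 35.6 kb, and overlapped the lncRNA gene Lncppara. Mir126a and Mir126b, known from endothelium, lay with Egfl7 in a stretch of 13.4 kb (chromosome 2, 26588201 to 26601600). Mature sequences from RefSeq on GRCm38.p6 are shown to compare the seeds, bases 2 to 8, in capitals. The 3 miR-29 members share the seed AGCACCA, and let-7b and let-7c share GAGGUAG, whereas the members of the chromosome 13 cluster differ from each other in seed.
mmu-miR-29a-3p: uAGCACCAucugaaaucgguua
mmu-miR-29b-3p: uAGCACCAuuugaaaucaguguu
mmu-miR-29c-3p: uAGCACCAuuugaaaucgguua
mmu-let-7b-5p: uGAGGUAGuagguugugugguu
mmu-let-7c-5p: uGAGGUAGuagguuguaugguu
mmu-miR-27b-3p: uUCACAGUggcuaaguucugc
mmu-miR-24-3p: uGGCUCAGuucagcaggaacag
mmu-miR-126a-3p: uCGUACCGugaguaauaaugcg

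In sequence the long stretches resembled the shorter ones. Their GC content was 44.4% (range over the autosomes 42.8 to 45.7%), compared to 44.2% in the shorter shared stretches and 41.9% in the autosomes. Bases marked as repeats made up 23.9% of them (21.5 to 27.5%), 24.7% of the shorter stretches and 33.5% of the autosomes. CpG dinucleotides were scarce in all 3, with 0.986, 0.980 and 0.851 per 100 bases and an observed-to-expected ratio of 0.200, 0.201 and 0.194. Single stretches varied more, with 90% of them between 38.2 and 50.95% GC. Repeats decreased with length, from a median of 23.3% in stretches under 15 kb to 19.2% in those of 50 kb and more.

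Matches to short motifs of liver factors were counted on both strands, with the same letters in reverse order beside them. The HNF4A motif (CAAAGTCCA) had 0.167 matches per 10 kb in long stretches (range over the autosomes 0.140 to 0.194), 0.180 in shorter ones and 0.134 in the autosomes, a ratio of 1.24 to the autosomes that decreased to 1.16 in bases outside repeats. The reversed letters had ratios of 1.18 and 1.01. For FOXA (TGTTTAC) the ratio was 1.02, for NFI (TTGGCA) 1.03, for C/EBP (TTGCNNAA) 0.880 and for HNF1 (GTTAATNAT) 0.854, and outside repeats 1.0, 1.03, 0.925 and 0.820. Their reversed letters gave 0.822, 1.32, 1.03 and 0.732, but the reversed C/EBP and NFI letters contain a CpG and are poor controls. All 5 motifs of liver factors were slightly denser in the shorter stretches than in the long ones.

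The octamer (ATGCAAAT) had a ratio of 0.629, the GC box (GGGGCGGGG, which reads the same reversed) 1.08, and the part of the CTCF motif that was searched (AGGGGGCGC) 0.998. Outside repeats these ratios were 0.776, 0.891 and 0.906. The reversed octamer letters, which contain a CpG, had a ratio of 0.828, and 0.954 outside repeats. The central 10 kb of a stretch held an HNF4A match in 660 of 4255 cases (15.5%), compared to 12.5% of 239337 windows of 10 kb over the autosomes. A FOXA match was in 78.5% of the central windows and 77.4% of all windows, C/EBP in 98.3% and 98.8%, HNF1 in 27.8% and 30.1%, and NFI in 99.5% of both. The octamer was in 42.5% and 56.96%, the GC box in 17.7% and 15.1%, and the CTCF letters in 2.0% of both. The NFI motif of 6 letters thus occurred in nearly every window, and the longer motifs differed between stretches and genome by a few percentage points at most, apart from the octamer.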

How the data were processed

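Chromatin from 108 mouse liver libraries was sequenced by the authors. Reads were aligned by the authors to mm10 with BWA 0.6.2-r126, and reads that were unmapped or not placed uniquely, duplicates and reads outside chromosomes 1 to 19 and X were removed with SAMtools 0.1.18, per the labels and the methods. The reads of each group and mark were merged and ChromHMM assigned 1 of 8 states to every bin of 200 bp. The deposited value is this state and not a signal, so a weaker mark, a lower depth or fewer cells can change a state alike. Because libraries were pooled and the model favours like neighbours, both steps affect where a stretch breaks.

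All 13168874 bins of each segmentation, those of chromosome X included, were read without a filter, and the main results used the autosomal bins only. Adjacent bins in state 3 in each of the 3 segmentations were joined on the 19 autosomes and stretches of at least 50 bins were kept. Genes, TSS (longest curated transcript), exons, repeats and bases were those of RefSeq and the GRCm38.p6 sequence, whose chromosome lengths matched the bins. Every symbol in the gene lists was matched and 1 base of overlap counted. Python 3.11.15, numpy 2.4.6, pandas 2.3.3 and matplotlib 3.10.9 were used, and the functions were tested on simulated segmentations.

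No test was made, as each group has 1 segmentation and regions are not replicates. The stretches, gene lists and motifs were chosen with earlier results of these data known. Named were the 20 longest stretches with their genes, up to 4 genes per list with the most bases in long stretches and up to 2 per liver list with none, in alphabetical order, and other genes named are said to be chosen on their values or are the tissue markers. The alternatives were other minimum lengths, bridged gaps, chromosome X, states 3 and 4 together, 50% of the stretch inside gene spans, 2 kb of gene overlap, and leaving out each group. SD 6m was not analysed here. Some genes that meet the naming rule are not reported here.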

Additional observations from a re-analysis of the deposited data

Results flagged for a closer look

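Chromosome X, which no comparison above uses, held 261 shared stretches of state 3, of which 9 reached 10 kb. This result was taken up because it is a signal in data outside the autosomes. These 9 stretches spanned 0.123 Mb of a chromosome of 171.0 Mb, or 0.526 per 10 Mb, compared to 17.3 per 10 Mb on the autosomes and 12.7 on the autosome with the fewest. The longest measured 20 kb (140543401 to 140563400) and overlapped Tsc22d3, a gene induced by glucocorticoids, as did another of 12.6 kb beside it. In the order SD 3m, SD 12m, CR 12m, state 3 covered 0.497%, 0.503% and 1.05% of the bins there, and the single groups had 8, 17 and 27 runs of at least 10 kb. The Polycomb state 6 covered 27.1%, 42.98% and 23.6% of it. No cause was tested.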

How the results depend on the processing

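The values describe 1 segmentation per group, and no spread between mice or read depth could be given. No paired analysis was possible because the libraries of each group were merged and no result comes from a test. Of 74 values computed under the alternatives, 45 stayed within 1.5 times the value for counts, within its Wilson 95% interval for shares of stretches or genes, or within 1 SD over the autosomes for other values, and 29 moved. The number of stretches was 11308 with a minimum of 5 kb, 1022 with 20 kb and 9145 with states 3 and 4 together. The share that overlapped a protein-coding gene was 74.7%, 84.9% and 73.5% under these 3 alternatives, and 74.1% where at least 50% of the stretch had to lie in gene spans. The share that held a TSS was 3.78% with gaps of up to 400 bp bridged, 6.07% with gaps of up to 1 kb bridged, 5.24% with states 3 and 4 together and 5.998% without SD 3m. The share of liver genes overlapped, beside that of all protein-coding genes, was 53.4% against 20.9% with a minimum of 5 kb, 12.8% against 3.46% with 20 kb, 36.5% against 13.05% and 46.6% against 16.8% with gaps of up to 400 bp and 1 kb bridged, 41.2% against 22.5% with states 3 and 4 together, and 45.4% against 16.6% without SD 3m. The GC content ranged from 43.9 to 44.8% over all alternatives. Including chromosome X, or leaving out SD 12m or CR 12m, moved none of these 5 measures.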
